A study of Mus musculus with 6 samples.

Results

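Chemokines are small secreted proteins that steer leukocytes, and chemokine receptors are the membrane proteins on which they act. The genes described here are the protein-coding rows of the count file whose names mark them as a chemokine ligand (Ccl, Cxcl, Xcl, Cx3cl1 and Pf4) or a receptor (Ccr, Cxcr, Xcr1, Cx3cr1 and the atypical Ackr receptors). They number 68 of 54532 listed genes, with 45 ligands and 23 receptors, and carry 62 distinct symbols because some Ccl19, Ccl21 and Ccl27 copies are listed more than once, 7 rows of them on unplaced scaffolds. The rule used names alone and no measured value.

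RNA-seq was performed on eWAT, the epididymal white adipose tissue, of male C57BL/6 mice that were 6 to 10 weeks old according to the methods. The 3 cachectic mice had been inoculated subcutaneously with LLC cells (Lewis lung carcinoma, a mouse lung cancer line), and cachexia was defined in the methods by a body weight loss of more than 20%. The 3 control mice carried no tumor, and tissue of both groups was taken on day 21. Each library is treated here as its own mouse, and the methods and sample titles do not mention pooling. No library from tumor-bearing mice without cachexia was analysed here, so tumor bearing and weight loss cannot be told apart.

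In the textbook view, ligands bind heparan sulfate on the vessel wall and signal through Gi-coupled receptors on rolling leukocytes, which activates integrins and leads the cells into the tissue. Ligands with the ELR motif act on Cxcr2 and draw neutrophils, Ccl2 and Ccl7 act on Ccr2 and draw monocytes, and the interferon-induced Cxcl9 and Cxcl10 act on Cxcr3 and draw activated T cells and NK cells. Atypical receptors bind chemokines without Gi signaling and take them up or carry them across cells. In adipose tissue the Ccl2 and Ccr2 pair is best known for monocyte entry in obesity.

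Total counts per library ran from 14928766 to 18855546, with each cachectic library below each control library. The tissue label held: summed CPM (counts scaled to library size) of 10 adipocyte markers was 33030 to 47030 in control mice and 35470 to 49820 in cachectic mice, whereas 8 markers of epididymis epithelium summed to 0.907 to 3.81 and 0.246 to 1.28. Control replicate 1 stood apart from the other controls. Its counts differed from theirs with a chi-square per degree of freedom of 59.7 and 46.6, against 13.1 between control replicates 2 and 3, so results that rest on it are given without it as well. Control replicate 1 also had the highest epididymis sum, 3.81 CPM, of which Adam7 was 3.06 CPM. Among the 7 mesothelial markers, Krt8 was at 94.7 CPM there against 3.99 to 20.1 CPM in the other libraries. Krt19 was also highest there, and the other mesothelial markers were not. Ccl28 and Ttc21a, given below, peaked in that library too, and the cause was not tested. All levels are of bulk tissue, in which fewer cells of a type and less RNA per cell cannot be told apart.

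Of the 68 genes, 41 had enough counts to be tested, comprising 26 ligands and 15 receptors. At an adjusted p under 0.05 in edgeR's quasi-likelihood test, 4 were higher and 9 were lower in cachectic eWAT. That is 9.76% higher and 22.0% lower, beside 9.0% higher and 8.63% lower among all 16003 genes tested, and 31.7% in either direction beside 17.6%. The ligands split into 2 higher (Ccl6 and Cxcl2) and 4 lower (Cxcl9, Ccl2, Ccl7 and Pf4), with a median log2 fold change of -0.22 over the 26 tested. The receptors split into 2 higher (Cxcr2 and Ackr1) and 5 lower (Ccr2, Cxcr3, Xcr1, Cx3cr1 and Ackr4), with a median of -0.83 over the 15 tested, where the median of all genes was -0.0031. Of the 15 receptors, 13 had a negative log2 fold change, beside 8037 of all 16003 genes tested. Among those 13, Ccr1 (-0.05) and Ackr2 (-0.06) were near 0. All fold changes are cachexia over control, on the log2 scale unless called a fold.

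**Figure D1:**
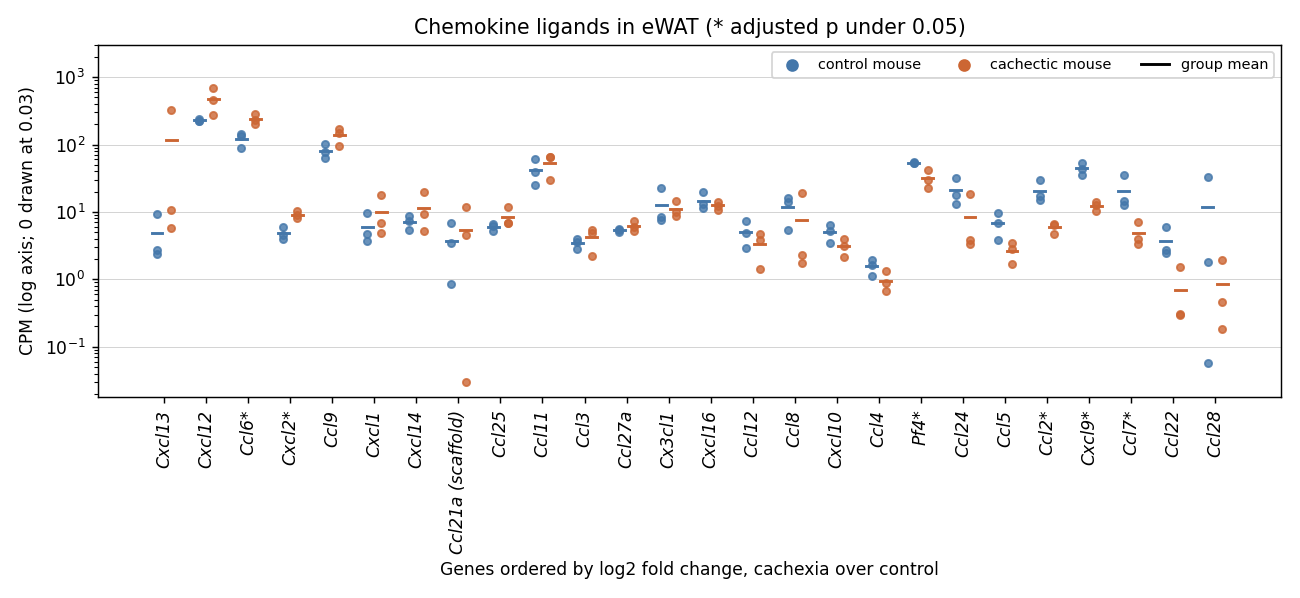
CPM on a log axis for each of the 26 tested ligands, ordered by log2 fold change, with 1 point per mouse (blue, control; orange, cachexia) and a bar at each group mean. Stars mark adjusted p under 0.05: the groups of Ccl6, Cxcl2, Cxcl9, Ccl2, Ccl7 and Pf4 do not overlap, and the high mean of Cxcl13 comes from 1 cachectic mouse.

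The promoters of Cxcl1 and Cxcl2 (the tested Cxcr2 ligands among the genes that the naming rule took in), of Cxcr2 itself and of the Cxcr3 ligands are shown. These genes belong to the neutrophil and interferon axes, whose called genes moved in opposite directions, and their windows hold the motifs searched. Each is the 250 bases before the RefSeq start in GRCm38.p6, 5′ to 3′ on the gene's strand, at chr5:90890995-90891244 (plus) for Cxcl1, chr5:90903649-90903898 (plus) for Cxcl2, chr5:92328080-92328329 (minus) for Cxcl9, chr5:92348890-92349139 (minus) for Cxcl10 and chr1:74153744-74153993 (plus) for Cxcr2. Capitals mark matches, on either strand, to the NF-kappaB forms GGGANNTTC and GGGNNTTCC and to the interferon response form GAAANNGAA.
Cxcl1: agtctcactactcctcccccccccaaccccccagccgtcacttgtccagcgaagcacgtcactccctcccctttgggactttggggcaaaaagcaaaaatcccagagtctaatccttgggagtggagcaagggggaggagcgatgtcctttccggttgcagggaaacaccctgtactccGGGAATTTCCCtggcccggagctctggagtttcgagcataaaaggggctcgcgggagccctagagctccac
Cxcl2: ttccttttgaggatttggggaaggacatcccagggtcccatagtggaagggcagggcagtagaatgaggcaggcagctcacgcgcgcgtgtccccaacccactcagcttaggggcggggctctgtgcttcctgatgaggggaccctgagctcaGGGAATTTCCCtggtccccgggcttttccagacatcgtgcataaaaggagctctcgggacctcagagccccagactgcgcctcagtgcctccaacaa
Cxcl9: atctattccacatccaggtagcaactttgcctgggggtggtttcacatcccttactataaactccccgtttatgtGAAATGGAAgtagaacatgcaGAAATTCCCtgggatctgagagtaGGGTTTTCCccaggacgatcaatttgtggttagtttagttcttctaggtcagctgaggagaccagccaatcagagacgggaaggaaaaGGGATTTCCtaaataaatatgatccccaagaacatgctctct
Cxcl10: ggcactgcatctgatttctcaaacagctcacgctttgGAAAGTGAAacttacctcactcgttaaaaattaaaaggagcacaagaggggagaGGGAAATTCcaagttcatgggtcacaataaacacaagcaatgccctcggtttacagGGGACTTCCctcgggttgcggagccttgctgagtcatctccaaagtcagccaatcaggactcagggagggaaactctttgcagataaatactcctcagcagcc
Cxcr2: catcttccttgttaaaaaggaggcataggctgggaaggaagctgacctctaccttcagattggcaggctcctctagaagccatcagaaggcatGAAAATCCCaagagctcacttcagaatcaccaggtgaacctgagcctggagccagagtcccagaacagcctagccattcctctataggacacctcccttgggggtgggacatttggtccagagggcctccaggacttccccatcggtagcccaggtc

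The windows of Cxcl1 and Cxcl2 carry the same 11 bases, GGGAATTTCCC, which begin 71 and 97 bases before the start and match the first NF-kappaB form on both strands. The Cxcl9 and Cxcl10 windows each hold both NF-kappaB forms and the interferon response form. The Cxcr2 window holds a match to the first NF-kappaB form, beginning 157 bases before the start. Windows of 300 bases (250 before and 50 after the start) were found for 47 of the 62 symbols, with 54 windows in all, and those of Ccl2 and Ccl7 were not among them. Either NF-kappaB form was in 15 of the 54 windows (27.8%), beside 9.55% of 32851 windows of all genes, and the 2 forms overlap in their letters. The interferon response form was in 8 of the 54 (14.8%), beside 8.56%. Of the 11 genes that passed the test and had a window, 5 held an NF-kappaB form (Cxcl2, Cxcl9, Cxcr2, Ackr1 and Ackr4), of which Cxcl2, Cxcr2 and Ackr1 were higher and Cxcl9 and Ackr4 were lower in cachexia. A match is a description of letters and not a binding site.

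Of the neutrophil axis, Cxcr2 and its ligand Cxcl2 were higher in cachectic eWAT. Cxcr2 (ENSMUSG00000026180, chr1:74153989-74161246 in GRCm38), the receptor that draws neutrophils towards ELR chemokines, was at 0.251, 0.860 and 1.19 CPM in the control mice and at 10.4, 11.1 and 11.1 CPM in the cachectic mice. Every cachectic mouse was far above every control mouse, and the cachectic mice were nearly level with each other. The log2 fold change was 3.83 (SE 0.48, edgeR adjusted p = 0.00352), a 14.2-fold difference. Its ligand Cxcl2 (ENSMUSG00000058427, chr5:90903871-90905938), a chemokine of activated macrophages and neutrophils, was at 3.91, 6.02 and 4.53 CPM in control mice and at 8.98, 8.05 and 10.4 CPM in cachectic mice, and the groups did not overlap. The rise of Cxcl2 was 0.92 (SE 0.25, edgeR adjusted p = 0.0415). That call did not hold when any 1 of the 6 libraries was left out, with log2 fold changes of 0.79 to 1.11 and adjusted p up to 0.145.

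The other ELR ligands that the naming rule took in were at low levels. Cxcl1, the mouse counterpart of the human GRO chemokines, was at 4.72, 9.51 and 3.74 CPM in control mice and at 4.84, 6.82 and 17.8 CPM in cachectic mice. The groups overlapped, and the log2 fold change of 0.71 (SE 0.54, edgeR adjusted p = 0.394) rested on cachexia replicate 3, without which it was -0.03. Cxcl3 and Cxcl5 had 21 and 33 counts over the 6 libraries and were not tested. Cxcr1, the second receptor of this kind, had 0 counts in the control libraries and 10 counts in the cachectic ones, and was not tested either. Of 16 neutrophil markers, 14 were tested, 11 rose and 1 fell. The gene that fell, G0s2, is also abundant in adipocytes, and without it the summed neutrophil marker level was 13.95 to 20.4 CPM in control mice and 241, 222 and 820 CPM in cachexia replicates 1, 2 and 3. Ly6g, a defining neutrophil surface marker, was at 0 CPM in all control mice and at 0.393 to 0.614 CPM in cachectic mice. Cxcr2 was nearly level across the cachectic mice, among which the marker sum varied. The sum of replicate 3 came mainly from S100a8, S100a9, Ngp and Ltf, at 186, 340, 106 and 64.3 CPM. Csf3r (30.5, 27.6 and 12.3 CPM in replicates 1, 2 and 3), Elane, Stfa2l1 and Ly6g were lowest in replicate 3. The other listed markers were highest there, among them Retnlg at 19.3, 21.9 and 27.7 CPM. The part of neutrophils in the Cxcr2 result was not tested.

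**Figure D2:**
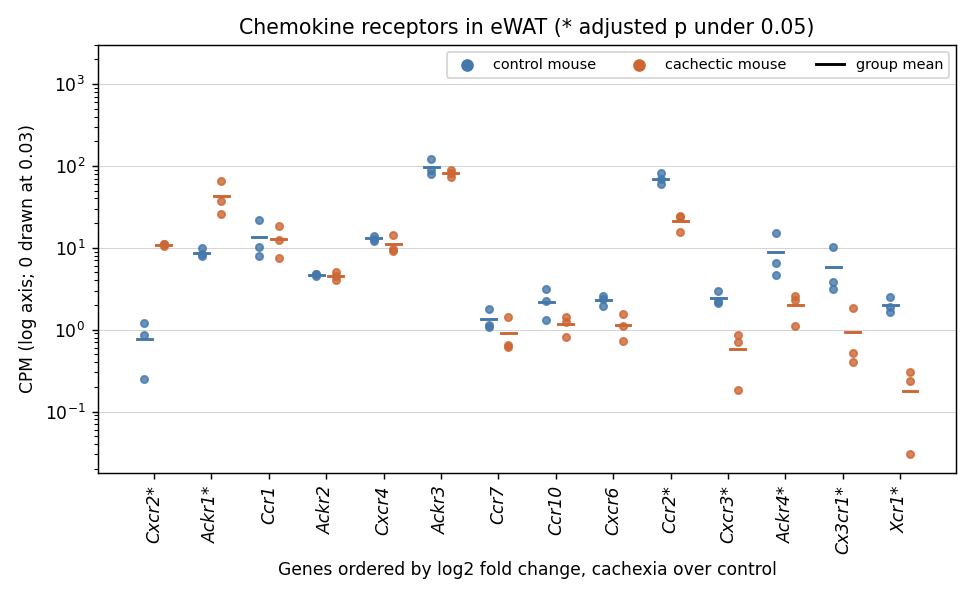
CPM on a log axis for 14 of the 15 tested receptors, ordered by log2 fold change, with 1 point per mouse (blue, control; orange, cachexia) and a bar at each group mean. Stars mark adjusted p under 0.05: Cxcr2 and Ackr1 are higher in all 3 cachectic mice, and Ccr2, Cxcr3, Ackr4, Cx3cr1 and Xcr1 are lower in all 3.

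Of the monocyte axis, Ccr2 and 2 of its 3 tested ligands were lower in cachectic eWAT. Ccr2 (ENSMUSG00000049103, chr9:124101950-124113557), the receptor of inflammatory monocytes, was at 59.4, 80.8 and 69.6 CPM in control mice and at 24.6, 15.7 and 23.5 CPM in cachectic mice. All cachectic values were below the lowest control value. Ccr2 was downregulated 3.29-fold, a log2 fold change of -1.72 (SE 0.20, edgeR adjusted p = 0.00302). Ccl2 (ENSMUSG00000035385, chr11:82035571-82037453), the main monocyte chemoattractant, was at 17.1, 29.8 and 14.8 CPM in control mice and at 6.47, 6.63 and 4.72 CPM in cachectic mice, again without overlap. Its log2 fold change was -1.79 (SE 0.30, edgeR adjusted p = 0.00872), and leaving out any 1 library kept the call with values from -1.98 to -1.42. Ccl7 (ENSMUSG00000035373, chr11:82045712-82047525), its neighbour and a second Ccr2 ligand, was at 14.7, 34.96 and 12.5 CPM in control mice and at 3.97, 3.32 and 7.15 CPM in cachectic mice. It decreased by 2.11 (SE 0.46, edgeR adjusted p = 0.0209). Without control replicate 2, its highest library, the log2 fold change was -1.5002 and did not pass (edgeR adjusted p = 0.0534), and the call was also lost without cachexia replicate 1 (0.0676) or 2 (0.0622).

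The other MCP ligands, Ccl12 and Ccl8, did not pass. Ccl12, a mouse Ccr2 ligand, was at 7.38, 4.81 and 2.95 CPM in control mice and at 1.40, 3.87 and 4.72 CPM in cachectic mice (log2 fold change -0.60, SE 0.51, edgeR adjusted p = 0.442), with overlapping groups. Ccl8, in mice a ligand of Ccr8, was at 16.3, 5.45 and 14.2 CPM in control mice and at 2.33, 18.9 and 1.77 CPM in cachectic mice (log2 fold change -0.65, SE 0.85, edgeR adjusted p = 0.632). Here cachexia replicate 2 was the highest of the 6 mice, and without it Ccl8 was at -2.54 with an edgeR adjusted p of 0.0295. Cx3cr1 (ENSMUSG00000052336, chr9:119901616-120069879), the fractalkine receptor of resident monocytes and macrophages, was at 10.3, 3.84 and 3.17 CPM in control mice and at 0.408, 1.84 and 0.524 CPM in cachectic mice. The groups did not overlap and the log2 fold change was -2.64 (SE 0.70, edgeR adjusted p = 0.0385). Control replicate 1 was the highest, and without it the value was -1.91 and did not pass (edgeR adjusted p = 0.0860), as was the case when control replicate 2 or 3 or cachexia replicate 1 or 3 was left out (edgeR adjusted p from 0.0670 to 0.103). Its gene model overlaps 9 other genes, and Ttc21a on the other strand was at 18.4 CPM in that same control library against 0.0567 to 0.758 CPM in the other 5, so the Cx3cr1 count is uncertain there. The ligand Cx3cl1, fractalkine, made by endothelial and epithelial cells, was at 22.3, 7.51 and 8.44 CPM in control mice and at 8.63, 14.6 and 10.03 CPM in cachectic mice (log2 fold change -0.20, edgeR adjusted p = 0.777), and was at 0.47 without control replicate 1.

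Beside these monocyte genes, the 12 macrophage markers summed to 1354 to 1727 CPM in control mice and 1185 to 1703 CPM in cachectic mice. Of these, 2 rose (Cd163 and Mertk) and 1 fell (Mrc1), and the ranges of the sum overlapped while those of Ccr2 did not. Csf1r, the receptor that macrophages need for survival, was at 195, 216 and 232 CPM in control mice and at 207, 216 and 86.8 CPM in cachectic mice. Fibroblasts and their progenitors also make Ccl2 and Ccl7. Their 9 markers summed to 5379 to 6144 CPM in control mice and 2594 to 3508 CPM in cachectic mice, with 3 lower (Col3a1, Col1a1 and Pi16) and 1 higher (Ly6a). Most of that difference was in Col3a1 (means of 2475 CPM in control and 272 CPM in cachectic mice) and Col1a1 (632 and 104 CPM). Dcn, Pdgfrb, Cd34 and Dpp4 were at -0.06, 0.10, -0.03 and -0.12 and did not pass, nor did Pdgfra at -0.75. The part of fibroblasts and progenitors in the Ccl2 and Ccl7 results was not tested.

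Of the interferon axis, Cxcl9 and Cxcr3 were lower and Cxcl10 did not pass. Cxcl9 (ENSMUSG00000029417, chr5:92321347-92328079), induced by interferon gamma, was at 35.6, 43.9 and 54.1 CPM in control mice and at 14.2, 12.8 and 10.2 CPM in cachectic mice. The ranges were well apart, and Cxcl9 was downregulated 3.58-fold, a log2 fold change of -1.84 (SE 0.20, edgeR adjusted p = 0.00250). Cxcl10, its neighbour and a second Cxcr3 ligand, was at 3.51, 6.30 and 5.21 CPM in control mice and at 2.16, 3.93 and 3.15 CPM in cachectic mice. Those groups overlapped, and the value of -0.70 (SE 0.35, edgeR adjusted p = 0.202) did not pass. Cxcr3 (ENSMUSG00000050232, chrX:101731535-101734269), their receptor on activated T and NK cells, was at 2.96, 2.24 and 2.10 CPM in control mice and at 0.6999, 0.184 and 0.852 CPM in cachectic mice, with no overlap. It was at -2.06 (SE 0.53, edgeR adjusted p = 0.0351) but did not pass when any library other than cachexia replicate 3 was left out (edgeR adjusted p from 0.0541 to 0.0942).

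Xcr1 (ENSMUSG00000060509, chr9:123852315-123862029), the receptor that marks cross-presenting dendritic cells, was at 2.51, 1.89 and 1.64 CPM in control mice and at 0.233, 0.307 and 0 CPM in cachectic mice. It had the most negative log2 fold change of the receptors, -3.41 (SE 0.71, edgeR adjusted p = 0.0177), at a level of few counts. The call was lost without control replicate 2 (edgeR adjusted p = 0.0524), control replicate 3 (0.0583) or cachexia replicate 1 (0.0538). Its ligand Xcl1, made by NK and T cells, had 35 counts in the control libraries and 5 in the cachectic ones and was below the count limit for testing. The 8 tested T cell markers included 3 lower ones (Trac, Trbc2 and Cd5) and none higher, with summed levels over the 10 listed of 11.7 to 20.5 CPM in control mice and 6.43 to 8.60 CPM in cachectic mice. Among 7 dendritic cell markers 3 were lower (Itgax, Batf3 and H2-Ab1) and none higher, with sums of 280.0 to 397 and 112 to 213 CPM, mostly from H2-Ab1. Without H2-Ab1 the sums overlapped, at 63.9 to 77.2 CPM in control mice and 53.2 to 73.1 CPM in cachectic mice. The largest part of that sum was Zbtb46, a dendritic cell transcription factor that was higher in every cachectic mouse than in any control mouse. Itgax, Flt3 and Batf3 were each lower in every cachectic mouse than in any control mouse, and the groups of Clec9a and Cd209a overlapped. Zbtb46 was at 27.0, 32.8 and 33.3 CPM in control mice and at 53.5, 34.2 and 49.6 CPM in cachectic mice (log2 fold change 0.56, edgeR adjusted p = 0.0789). Itgax and Batf3 were at -1.86 and -1.35 (edgeR adjusted p = 0.0378 and 0.046). Flt3 and Cd209a were at -1.53 and -0.82 and did not pass (edgeR adjusted p = 0.0523 and 0.354). Clec9a, a marker of the same cross-presenting cells as Xcr1, was at 4.99 to 6.74 CPM in control mice and 4.67 to 9.70 CPM in cachectic mice (log2 fold change 0.45, edgeR adjusted p = 0.355). The 7 NK cell markers summed to 11.6 to 14.1 CPM and to 4.14 to 13.9 CPM, and none passed the test. The part of these cells in the Cxcl9, Cxcr3 and Xcr1 results was not tested.

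Of the 4 atypical receptors, 1 was higher, 1 was lower and 2 did not pass. Ackr1 (ENSMUSG00000037872, chr1:173331886-173333750), the Duffy receptor of venular endothelium and red blood cells, was at 8.38, 9.80 and 7.93 CPM in control mice and at 26.1, 37.5 and 64.6 CPM in cachectic mice. Each cachectic mouse was above each control mouse, the cachectic mice differed among themselves, and the log2 fold change was 2.29 (SE 0.32, edgeR adjusted p = 0.00484), a 4.91-fold difference. Cadm3, which overlaps it on the same strand, was at 14.8 to 22.6 CPM in control mice and 16.3 to 19.8 CPM in cachectic mice (log2 fold change -0.08, edgeR adjusted p = 0.799). Ackr4 (ENSMUSG00000079355, chr9:104084157-104126933), a scavenger of Ccl19, Ccl21 and Ccl25, was at 15.2, 4.64 and 6.46 CPM in control mice and at 2.57, 1.11 and 2.30 CPM in cachectic mice. Its log2 fold change was -2.14 (SE 0.52, edgeR adjusted p = 0.0298). Without control replicate 1, the highest, it was -1.48 and did not pass (edgeR adjusted p = 0.0576), and the call held in 1 of the 6 leave-out fits, that without control replicate 2 (edgeR adjusted p up to 0.0777 in the others). The 6 lymphatic endothelial markers, of cells that carry Ackr4, summed to 243, 149.6 and 132 CPM in control mice and to 149.0, 149.7 and 54.7 CPM in cachectic mice, with 1 lower (Ccdc3), and control replicate 1 was highest here too. In cachexia replicate 3, Mmrn1, Reln and Prox1 of that list were at 0.393, 0.197 and 0.525 CPM. The other libraries had at least 32.6, 21.5 and 3.62 CPM of these, whereas Ackr4 was lowest in cachexia replicate 2. The part of lymphatic endothelial cells in the Ackr4 result was not tested. Acad11, a fatty acid oxidation gene that overlaps Ackr4 on the other strand, rose by 1.46. Ackr2, the scavenger of inflammatory CC ligands, was at 4.53 to 4.82 CPM in control mice and 3.999 to 5.02 CPM in cachectic mice (log2 fold change -0.06, edgeR adjusted p = 0.894). Ackr3, the Cxcl12 scavenger, was at 79.4, 120.1 and 89.9 CPM in control mice and at 81.4, 72.2 and 89.0 CPM in cachectic mice (log2 fold change -0.25, SE 0.18, edgeR adjusted p = 0.351).

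Cells that carry Ackr1 were represented as follows. All 6 tested erythroid markers of 7 listed rose, and their sum was 253 to 451 CPM in control mice and 1334 to 2856 CPM in cachectic mice. Of 9 endothelial markers, 3 rose (Pecam1, Cdh5 and Cldn5) and none fell, with sums of 1607 to 1695 and 2272 to 3446 CPM. Across the cachectic mice, Ackr1 was highest in replicate 3, whereas the erythroid sum was highest in replicate 1 and the endothelial sum in replicate 2. Of the 9 endothelial markers, only Cldn5 was highest in replicate 3, at 392 CPM. Pecam1 (724, 1072 and 584 CPM in replicates 1, 2 and 3), Cdh5 (640, 762 and 469 CPM), Tek, Tie1, Emcn, Vwf and Erg were lowest there. Selp, the endothelial P-selectin, which is not in that list, had the same order of replicates as Ackr1, at 53.3, 64.1 and 105.9 CPM. Of the 6 higher leukocyte adhesion genes, given below, Selp alone had this order, and Sele was at 7.99, 3.81 and 4.79 CPM. The summed platelet markers had the order of Ackr1 too, at 6.88, 8.60 and 10.6 CPM. The part of erythroid and endothelial cells in the Ackr1 result was not tested.

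**Figure D3:**
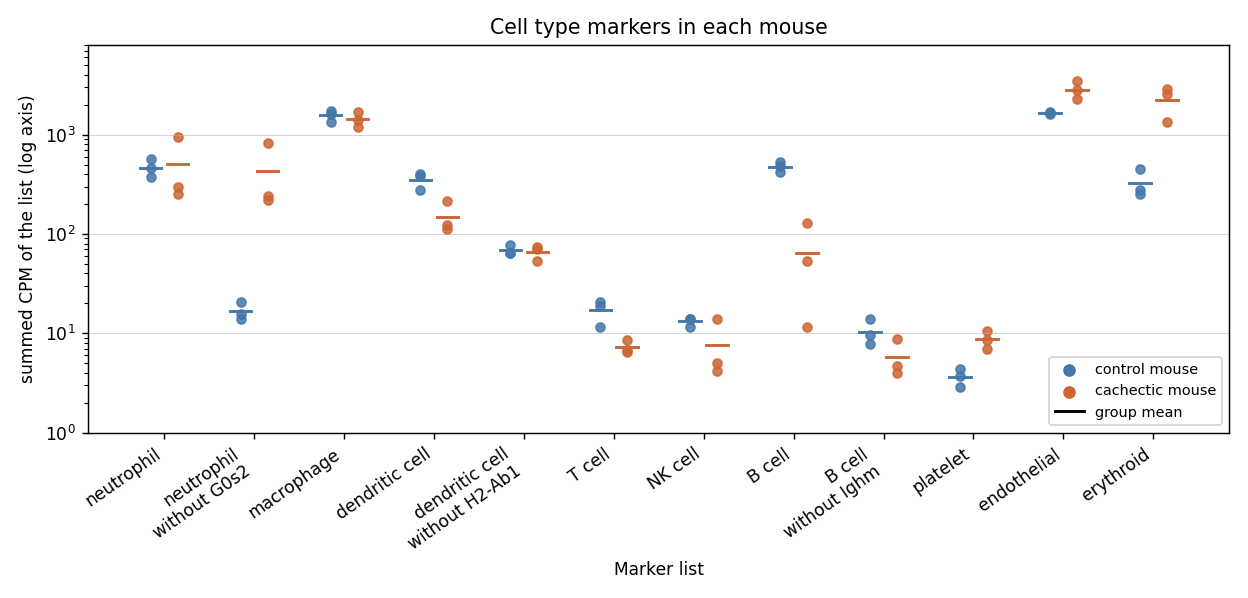
Summed CPM of the cell type marker lists on a log axis, with 1 point per mouse (blue, control; orange, cachexia) and a bar at each group mean. The neutrophil list without G0s2 and the erythroid, endothelial and platelet lists are higher in all 3 cachectic mice and the T cell list is lower in all 3. The full dendritic and B cell lists are lower in all 3, but their ranges overlap without H2-Ab1 and without Ighm, as do those of the full neutrophil, macrophage and NK cell lists. Zbtb46 is the largest part of the dendritic list without H2-Ab1 and is higher in all 3 cachectic mice, whereas Itgax, Flt3 and Batf3 are lower in all 3.

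Among the ligands of Ccr1, Ccl6 was higher in cachectic eWAT. Ccl6 (ENSMUSG00000018927, chr11:83587882-83593087), a rodent CC chemokine made by myeloid cells, was at 88.7, 143 and 135 CPM in control mice and at 199.8, 229.6 and 288 CPM in cachectic mice. The groups did not overlap and Ccl6 was upregulated 1.96-fold, a log2 fold change of 0.97 (SE 0.22, edgeR adjusted p = 0.0241). The call did not hold without control replicate 2 (edgeR adjusted p = 0.0511), control replicate 3 (0.0774) or cachexia replicate 3 (0.0549). Ccl9, its close relative, was at 64.2, 100.8 and 78.7 CPM in control mice and at 94.2, 149.6 and 172.5 CPM in cachectic mice. The groups overlapped by a single mouse, and the value of 0.77 (SE 0.25, edgeR adjusted p = 0.0721) did not pass. Ccr1 itself, a receptor of monocytes and neutrophils, was at 8.03, 21.9 and 10.3 CPM in control mice and at 12.5, 7.49 and 18.7 CPM in cachectic mice (log2 fold change -0.05, SE 0.44, edgeR adjusted p = 0.943). Its sign turned under several settings. The related ligands Ccl5, Ccl3 and Ccl4 were at -1.36, 0.28 and -0.73 (edgeR adjusted p = 0.0618, 0.653 and 0.262).

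Pf4 (ENSMUSG00000029373, chr5:90772435-90773383), platelet factor 4, which tissue macrophages also make, was at 54.8, 53.0 and 52.7 CPM in control mice and at 42.3, 22.4 and 30.2 CPM in cachectic mice. The control mice lay close together and all cachectic mice were lower, by 1.69-fold, with a log2 fold change of -0.76 (SE 0.22, edgeR adjusted p = 0.0484). The call was lost in 5 of the 6 leave-out fits (edgeR adjusted p from 0.0785 to 0.128) and held without cachexia replicate 1. The 7 platelet markers summed to 2.89 to 4.32 CPM in control mice and to a higher 6.88 to 10.6 CPM in cachectic mice. Of the 3 tested, Clec1b was higher and the other two did not pass, and Gp1bb was at 0 in every library. Ppbp, the other main platelet chemokine, was at 1.58 (edgeR adjusted p = 0.0513).

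The remaining ligands with high levels did not pass. Cxcl12, which retains leukocytes and progenitors through Cxcr4, was at 243, 224 and 223 CPM in control mice and at 700.3, 271 and 458 CPM in cachectic mice. No cachectic mouse was as low as a control mouse, but they ranged widely, and the log2 fold change of 1.05 (SE 0.31) did not pass (edgeR adjusted p = 0.0543). It passed without cachexia replicate 2 at 1.34 (edgeR adjusted p = 0.0148). Cxcr4 was at 12.2, 12.7 and 14.05 CPM in control mice and at 9.74, 9.21 and 14.3 CPM in cachectic mice (log2 fold change -0.23, SE 0.21, edgeR adjusted p = 0.490). Ccl11, eotaxin-1, was at 25.3, 60.4 and 38.8 CPM in control mice and at 66.2, 30.1 and 65.6 CPM in cachectic mice (log2 fold change 0.38, SE 0.38, edgeR adjusted p = 0.516), and the groups overlapped. Of 4 tested eosinophil and mast cell markers, the mast cell proteases Cpa3, Mcpt4 and Cma1 were lower, and the list summed to 39.6 to 52.3 CPM in control mice and 11.4 to 19.1 CPM in cachectic mice. The eosinophil markers Siglecf, Epx, Prg2 and Il5ra were not tested, at or below 0.702 CPM in every library, so that sum was mostly of mast cell genes. Cxcl13, the B cell follicle chemokine, was at 2.41, 9.46 and 2.72 CPM in control mice and at 5.71, 329.7 and 10.7 CPM in cachectic mice. Its log2 fold change of 4.58 (SE 1.54, edgeR adjusted p = 0.0777) came from cachexia replicate 2, without which it was 0.76. The 7 B cell markers summed to 53.9 CPM in that mouse, to 129 and 11.5 CPM in the other cachectic mice and to 418 to 525 CPM in control mice, mostly from Ighm, which fell. Without Ighm the sum was 8.66 CPM in that mouse, the highest of the cachectic mice, against 3.97 and 4.72 CPM in the other two and 7.85 to 13.8 CPM in control mice, and the part of B cells in the Cxcl13 value was not tested. Ccl22, a dendritic cell ligand of Ccr4, was just outside the threshold at -2.43 (SE 0.70, edgeR adjusted p = 0.0504).

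Compared per gene length in FPKM (fragments scaled to gene length and library size), the order of the ligands changed between the groups. In control mice, the highest mean levels were those of Pf4 (73.3 ± 1.67, SD, n = 3), Ccl6 (67.1 ± 15.9), Ccl11 (37.8 ± 16.04), Cxcl12 (27.8 ± 1.43) and Ccl9 (26.3 ± 5.91). In cachectic mice, they were those of Ccl6 (130.1 ± 24.1), Cxcl13 (97.9 ± 157, from 1 mouse), Cxcl12 (57.0 ± 25.9), Ccl11 (48.8 ± 18.7) and Ccl9 (44.5 ± 12.8), with Pf4 at 42.9 ± 13.7. The SDs of Pf4 and Ccl6 overlapped in control mice, as did those of Cxcl12, Ccl11, Ccl9 and Pf4 in cachectic mice. Among receptors in control mice, Ackr3 led at 28.4 ± 6.17 FPKM, followed by Ccr2 (10.2 ± 1.54), Cxcr4 (7.09 ± 0.521) and Ackr1 (6.12 ± 0.673). In cachectic mice, Ackr1 (29.7 ± 13.7) and Ackr3 (23.6 ± 2.45) were within 1 SD of each other, and Cxcr4 (5.99 ± 1.502), Ccr1 (4.45 ± 1.93), Cxcr2 (3.48 ± 0.124) and Ccr2 (3.07 ± 0.709) followed. Cxcr2 was at 0.248 ± 0.154 FPKM in control mice.

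Neighbouring chemokine genes differed in their calls. In the 270.0 kb cluster of chromosome 11 that starts with Ccl2, Ccl2 and Ccl7 were lower, whereas Ccl11, Ccl12 and Ccl8 did not pass. In the second chromosome 11 cluster (139 kb), Ccl6 was higher and its other 4 members did not pass. In the chromosome 5 cluster (147 kb), Pf4 was lower and Cxcl2 was higher. In the receptor cluster of chromosome 9, Ccr2 and Xcr1 were lower and Ccr1 and Cxcr6 did not pass. Clusters were runs of 3 or more of the 68 genes with gaps of at most 500 kb.

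**Figure D4:**
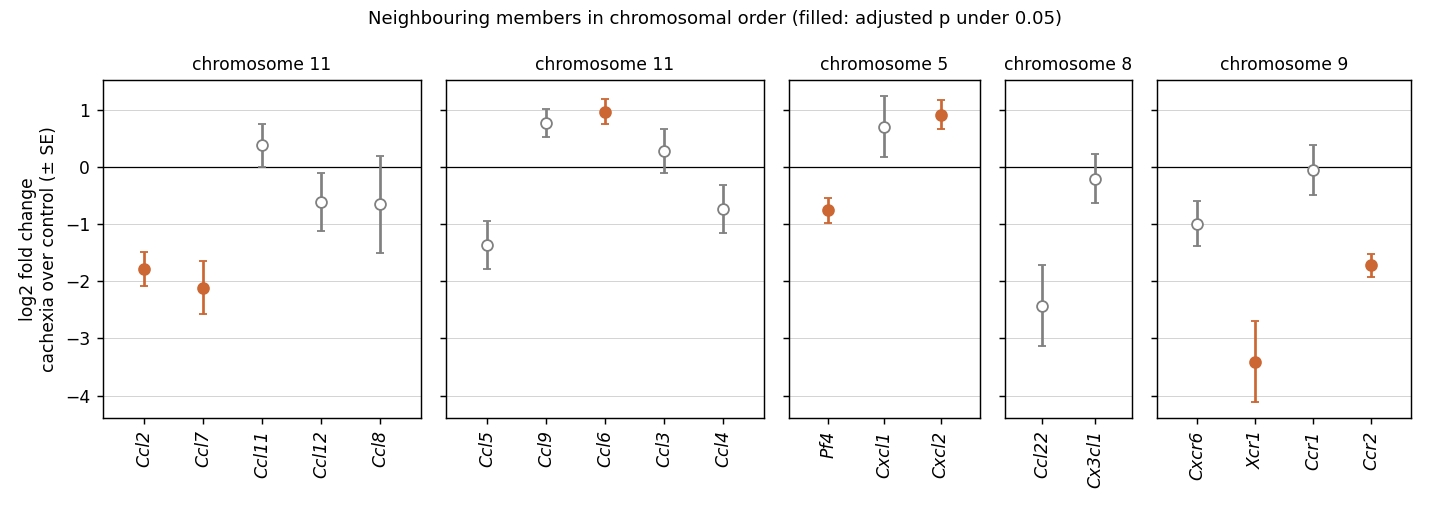
Log2 fold change, cachexia over control, with its SE, for tested genes of clusters of 3 or more listed genes that hold 2 or more tested ones on an assembled chromosome, in chromosomal order (filled points, adjusted p under 0.05). Ccl2 and Ccl7 are lower beside Ccl11, which is not, and Pf4 and Cxcl2 lie on opposite sides of 0 within 1 cluster.

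Of the 27 genes not tested, 9 had no count in any library and the others had at most 55 counts in all. The genes without a count were Ccl20, Cxcl15, Ccl27b and copies of Ccl19, Ccl21 and Ccl27a. For Ccl20 and Cxcl15, a count of 0 over 104016350 counts allows up to 3 counts, or 0.0288 CPM, for counting error only. For the copied genes a count of 0 sets no such limit, since reads shared between copies can go uncounted. Ccr3, Ccr4, Ccr6, Ccr8, Ccr9 and Cxcr5 were also below the limit, so the receptors of Ccl11, Ccl22 and Cxcl13 were not tested at this depth. Copies of Ccl19, Ccl21 and Ccl27 can share reads, and their counts are uncertain. The tested Ccl21a copy on a scaffold was at 3.51, 0.860 and 6.91 CPM in control mice. In cachectic mice it was at 11.8, 4.48 and 0 CPM. That 0 was in cachexia replicate 3, where the lymphatic markers Mmrn1, Reln and Prox1 were at 0.393, 0.197 and 0.525 CPM. The cause of the spread was not tested. Ccl28 was at 33.4 CPM in control replicate 1 against 0.0567 to 1.93 CPM in the other libraries, and its log2 fold change of -3.76 did not pass (edgeR adjusted p = 0.153). Without that library it was -0.13 (SE 1.22, edgeR adjusted p = 0.956).

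Other genes of the chemokine pathway were taken from a list of 86, of which 84 were in the file under the names listed and all 84 were tested. The 13 higher (15.5%) and 14 lower (16.7%) stand beside 9.0% and 8.63% of all genes, and their median log2 fold change was -0.05. In the leukocyte adhesion list, 6 of 13 genes were higher and 1 was lower. The endothelial selectins, on which leukocytes roll, led: Selp was at 10.2, 10.9 and 7.37 CPM in control mice and at 53.3, 64.1 and 105.9 CPM in cachectic mice (log2 fold change 2.97, SE 0.29, edgeR adjusted p = 0.00162). Sele was at 0.652, 0.688 and 0.453 CPM and at 7.99, 3.81 and 4.79 CPM (3.19, SE 0.42, edgeR adjusted p = 0.00388). Both sets of groups were fully apart. Icam1, the integrin ligand, rose by 1.35, and Icam2, Pecam1 and Esam by 0.65, 1.159 and 1.55, while Itga4, the integrin subunit of monocytes and lymphocytes that binds Vcam1, was at -0.95. Vcam1 (0.28) and the neutrophil integrin Itgam (0.41) did not pass. The 6 higher genes are all expressed by endothelial cells, and Pecam1 is also 1 of the 9 endothelial markers, whose sum was 1607 to 1695 CPM in control mice and 2272 to 3446 CPM in cachectic mice. The part of these cells in the adhesion result was not tested.

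Among 13 other chemoattractants and their receptors, 3 were higher and 2 were lower. The formyl peptide receptors of neutrophils, Fpr1 and Fpr2, were at or below 0.516 CPM in every control mouse and at 1.34 CPM or more in every cachectic mouse, with log2 fold changes of 4.22 and 4.90 (edgeR adjusted p = 0.0242 and 0.0112). The complement receptor C5ar1 rose by 0.68. The adipokine chemoattractant Rarres2 (chemerin) was at -0.74, and Cd74, the invariant chain and a receptor of Mif, at -1.77, both past the threshold. In the Rac and cytoskeleton list, 5 of 13 were lower and none higher: Tiam1 (-1.75) and Dock2 (-1.09), both Rac activators, Rac2 (-0.57), Rock2 (-0.81) and Cdc42 (-0.64). The desensitization list had Rgs2 higher at 2.33 and Rgs14 and Rgs18 lower at -1.04 and -1.02, and its arrestins and receptor kinases did not pass. Among G protein effectors, Pik3r5, the regulatory subunit of PI3K gamma, was higher at 1.499 and Plcb2 (-1.13) and Prkcd (-0.60) were lower. Of the chemokine capture and cleavage genes, Mmp9 and Sdc4 were higher (0.90 and 0.95), and Mmp2 and Sdc2 were lower (-0.90 and -0.87).

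**Figure D5:**
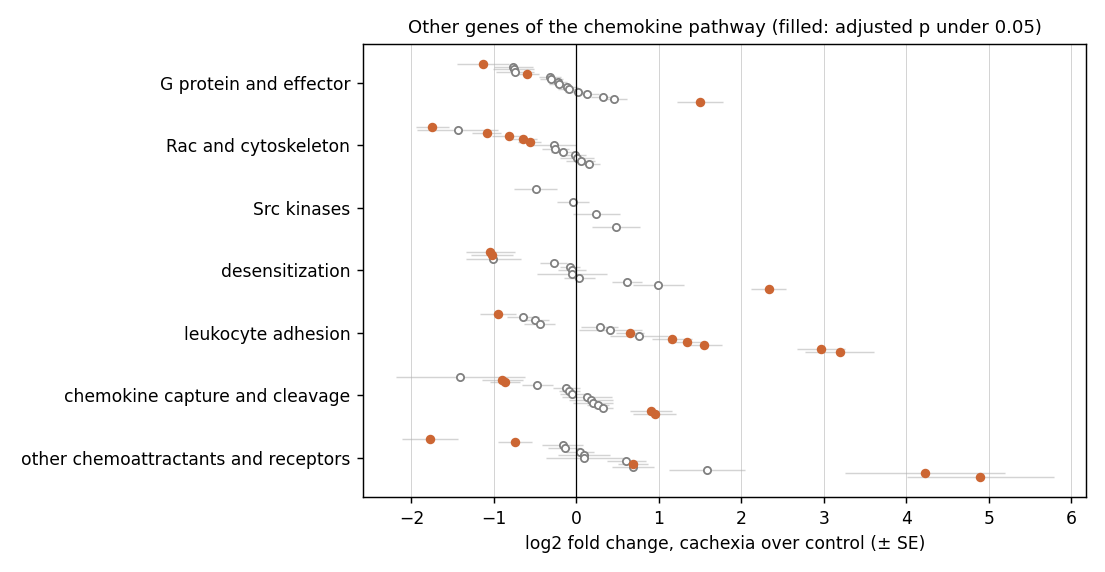
Log2 fold change, cachexia over control, with its SE, for the 84 other genes of the chemokine pathway, grouped by role (filled points, adjusted p under 0.05). The adhesion list has 6 filled points to the right of 0, the Rac and cytoskeleton list has 5 to the left, and the 2 points farthest right are Fpr1 and Fpr2.

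In ligand and receptor pairs, direction could be compared where both were tested. Cxcl2 and Cxcr2 were both higher, and Ccl2 and Ccl7 with Ccr2, and Cxcl9 with Cxcr3, were lower on both sides. Ccl6 was higher without a call for Ccr1, and Cx3cr1 was lower without a call for Cx3cl1. The calls that held in every other setting that tested the gene were Cxcl9, Ccr2, Ccl2, Ackr1 and Cxcr2.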

How the data were processed

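RNA-seq of eWAT from 3 control and 3 cachectic mice was analyzed, with samples grouped by their labels. Per the authors' methods, filtered reads were mapped by Hisat2 and assigned to genes by featureCounts, and the deposited values are each mouse's raw count per gene. The submitters' processing notes give featureCounts 1.5.0-p3, DESeq2 1.16.1 and build mm9, yet the positions of all 68 genes equal those of GENCODE M21 on GRCm38. The strand setting is not given in the sources used here. The authors also deposited FPKM values, used here only to compare levels between genes. Their table of DEGs, with the authors' fold changes and p-values, was not used.

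Counts were tested with edgeR 4.0.16 in R 4.3.3 (filterByExpr, TMM factors of 0.937 to 1.07, quasi-likelihood fit over both groups, Benjamini-Hochberg adjustment over all 16003 tested genes, threshold 0.05). CPM used TMM-normalized library sizes. The biological coefficient of variation was 0.264. Total counts of 14928766 to 18855546 set the precision, and reads without molecular identifiers cover counting error only. With 3 mice a group, an exact permutation test cannot go below 0.1, so none is reported per gene. Alternatives used RLE size factors, plain totals, other filters, DESeq2 1.42.0, limma 3.58.1, a replicate block and the removal of each library. The code was tested on simulated data. False calls there were 5.71% of calls with edgeR, 4.12% with the replicate block, 3.49% with limma-voom and 10.2% with DESeq2.

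Named with values per mouse were the genes that passed, the 5 ligands and 5 receptors with the highest mean FPKM among those that did not, and the partners of genes that passed. Ccl3, Ccl4, Ccl5, Ccl22, Ccl28, the Ccl21a copy, Cxcr1 and the overlapping genes Ttc21a, Cadm3 and Acad11 were added after their values were seen. The values of 1 receptor that did not pass are not reported here, though it is in the counts and medians. G0s2, Ighm and H2-Ab1 were left out of marker sums after their values were seen. The genes, pathway lists and marker lists were chosen with earlier results of these data known. The 3 matching rows that were not protein-coding (Cxcl11, Ccl19-ps1 and Ccl19-ps3) were left out. Promoter sequences are from RefSeq (GRCm38.p6). No 2 of the 15 library pairs agreed within sampling noise. Replicate numbers belong to different mice, and deviations of same-numbered libraries correlated between -0.0113 and 0.00849, so libraries were not paired.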

Additional observations from a re-analysis of the deposited data

How the results depend on the processing

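Of the calls, Cxcl9, Ccr2, Ccl2 and Ackr1 held in all 15 other settings, and Cxcr2 in all 14 that tested it. Ccl6 held in 12 of 15, Ccl7 in 11 of 15, Xcr1 in 11 of 14, Pf4 and Ackr4 in 8 of 15, Cxcr3 in 8 of 14, Cxcl2 in 7 of 15 and Cx3cr1 in 7 of 14. The number of ligands higher was 4 with DESeq2 and 0 to 2 when 1 library was left out. The number of ligands lower was 2 with the replicate block and 2 to 5 when 1 library was left out. Receptors higher numbered 1 and receptors lower 2 when at least 10 counts in every library were required, where Cxcr2, Cxcr3, Cx3cr1 and Xcr1 were not tested. Receptors lower numbered 3 with limma on log2(FPKM + 1), 3 with the replicate block and 1 to 3 when 1 library was left out. The sign turned for Cx3cl1 (-0.47 to 0.47 over the leave-out fits), Cxcl1 (-0.034 to 1.21), Ackr2 (-0.14 to 0.028) and Ccr1 (-0.41 to 0.50, and 0.015 with plain totals and 0.017 with the replicate block), none of which passed in any setting. Over all genes 2821 passed, against 1881 with the replicate block, 3884 with DESeq2, 1312 without control replicate 2 and 828 without control replicate 3. The causes were not tested. Scalings moved the median of all genes by at most 0.0495. Ccl22 passed in 6 other settings, Cxcl12 in 4, Ccl9 in 3 and Ccl5 with DESeq2.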
